A study of Mus musculus with 9 samples.

Results

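The 4 myogenic regulatory factors Myod1, Myf5, Myf6 and Myog, the paired-box genes Pax3 and Pax7 that mark muscle progenitors and satellite cells, and the cofactor gene Mef2c were followed in the fetal and newborn mouse urogenital sinus. The 7 genes were chosen by name, and each was read through every probe set annotated to its symbol alone. They were 7 of 18193 genes on the array and had 15 of its 45101 probe sets. Myog and Myod1 had lower signals on the BPA array than on the control array at every age, and Myog was higher at P0 than at E17 after every exposure. None of these differences passed the test across all genes, and Pax3 and Pax7 lay below the level at which genes were tested.

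Gene expression was measured on 9 Affymetrix arrays of urogenital sinus RNA from C57BL/6 mice. The tested agents were bisphenol A (BPA), a building block of polycarbonate plastic that binds estrogen receptors weakly, given to pregnant females at 20 µg/kg/day, and diethylstilbestrol (DES), a potent man-made estrogen, given at 0.2 µg/kg/day. Both were dissolved in corn oil stripped of tocopherol and given from embryonic day 13 to 16, and the control fetuses are labelled as vehicle exposed. Each of BPA, DES and control had 1 array at embryonic day 17 (E17), 1 at embryonic day 18 (E18) and 1 on the day of birth (P0), so the 3 arrays of an agent were its only repeats and differed in age. The labels describe the dissection for males and females alike and do not give the sex or the number of animals or litters behind an array. The p-values therefore measure the spread between these arrays only, which may be partly technical. With 1 array for each agent and age, that spread also holds any agent difference that changes with age.

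Skeletal muscle forms when Pax3 and Pax7 progenitors switch on Myf5 and Myod1, which commit them to the muscle lineage. Myog then drives the myoblast into differentiation, Myf6 (also called MRF4) acts in late differentiation and in muscle fibres, and Mef2c, a MADS-box factor, works together with them on muscle genes. Satellite cells are the Pax7 progenitors that stay on the fibre, and striated muscle of the urethral sphincter forms around the urogenital sinus. Mef2c is also used by smooth muscle, endothelium and neural crest, so it marks skeletal muscle less strictly than the other members.

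In the RefSeq gene table of build GRCm38.p6, Myod1 lies at chr7:46376474-46379092, Myog at chr1:134290004-134292548, Mef2c at chr13:83504017-83667079, Pax3 at chr1:78101267-78197136 and Pax7 at chr4:139737059-139833530. Myf5 (chr10:107482908-107486927) and Myf6 (chr10:107492848-107494723) are neighbours, with 5.92 kb between them. Promoter-table windows of Myog and Myf5 are shown because Myog tracked the contractile genes most closely on these arrays and Myf5 is an early factor with a testable signal and an entry in the table. Each window runs from 250 bases before a start site that the RefSeq promoter table uses to 50 bases after it, 5′ to 3′ on the coding strand, at chr1:134289754-134290053 (plus strand) for Myog and chr10:107486085-107486384 (minus strand) for Myf5. For Myog the start site is the first base of the gene span given above, whereas for Myf5 it lies 793 bases inside the span, so that the Myf5 window is within the gene table's span and the region before its outermost start is not shown. Capitals mark matches to the E-box CANNTG, to which myogenic factors bind, and to the MEF2 core, which is TA, then 4 letters that are each A or T, then TA; both strands were searched, and no matches overlap in these windows.
Myog window: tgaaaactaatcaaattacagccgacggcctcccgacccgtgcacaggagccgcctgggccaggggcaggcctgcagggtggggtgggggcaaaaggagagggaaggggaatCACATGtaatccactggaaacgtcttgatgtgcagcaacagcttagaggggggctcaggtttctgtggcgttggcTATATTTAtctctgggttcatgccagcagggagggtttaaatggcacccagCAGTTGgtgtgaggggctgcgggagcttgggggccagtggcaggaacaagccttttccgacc
Myf5 window: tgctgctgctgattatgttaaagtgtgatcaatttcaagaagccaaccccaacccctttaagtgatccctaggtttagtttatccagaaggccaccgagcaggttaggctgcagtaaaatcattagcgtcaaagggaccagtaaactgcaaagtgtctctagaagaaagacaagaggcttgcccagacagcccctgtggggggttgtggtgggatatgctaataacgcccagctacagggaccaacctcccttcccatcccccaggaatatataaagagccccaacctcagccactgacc
The Myog window held 2 E-boxes, CACATG at -138 and CAGTTG at -12 from its start site, and 1 MEF2 core, TATATTTA at -63. The Myf5 window held neither motif and had a TATAAA match, which is not capitalised, at position 20 after its start site. Of 32851 promoter windows of the same length in the table, 72.3% held a CANNTG, 9.32% a MEF2 core and 13.6% a TATAAA. These matches are descriptions of the letters, and no binding was measured here.

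Tissue identity was read from a marker list drawn up after the results were seen. Of 9 listed urogenital sinus markers, 6 were read here, and all 6 were above the lower limit for testing on average over the arrays, among them Shh with signals of 1136 to 1949, Foxa1 with 651 to 929 and Hoxd13 with 1080 to 1596. Deposited intensities were not on a common level, with 2% trimmed means of 157 (BPA P0, the lowest) to 277 (DES E17, the highest), and were quantile-normalised here. Intensities have no count depth, so precision is limited by how many arrays there are. Some arrays stood apart in markers of other tissues. The summed signal of 7 epidermal markers was 2916, 8425 and 19330 on the BPA arrays at E17, E18 and P0, against 2739, 3400 and 2403 on the DES arrays and 2138, 2295 and 1750 on the control arrays. The summed signal of 6 gonad markers was 3245 on the BPA P0 array and 302 to 418 on the others. That of 6 red cell markers was 2414 on the BPA E18 array, 1482 on the DES E17 array and 411 to 1021 on the others.

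**Figure D1:**
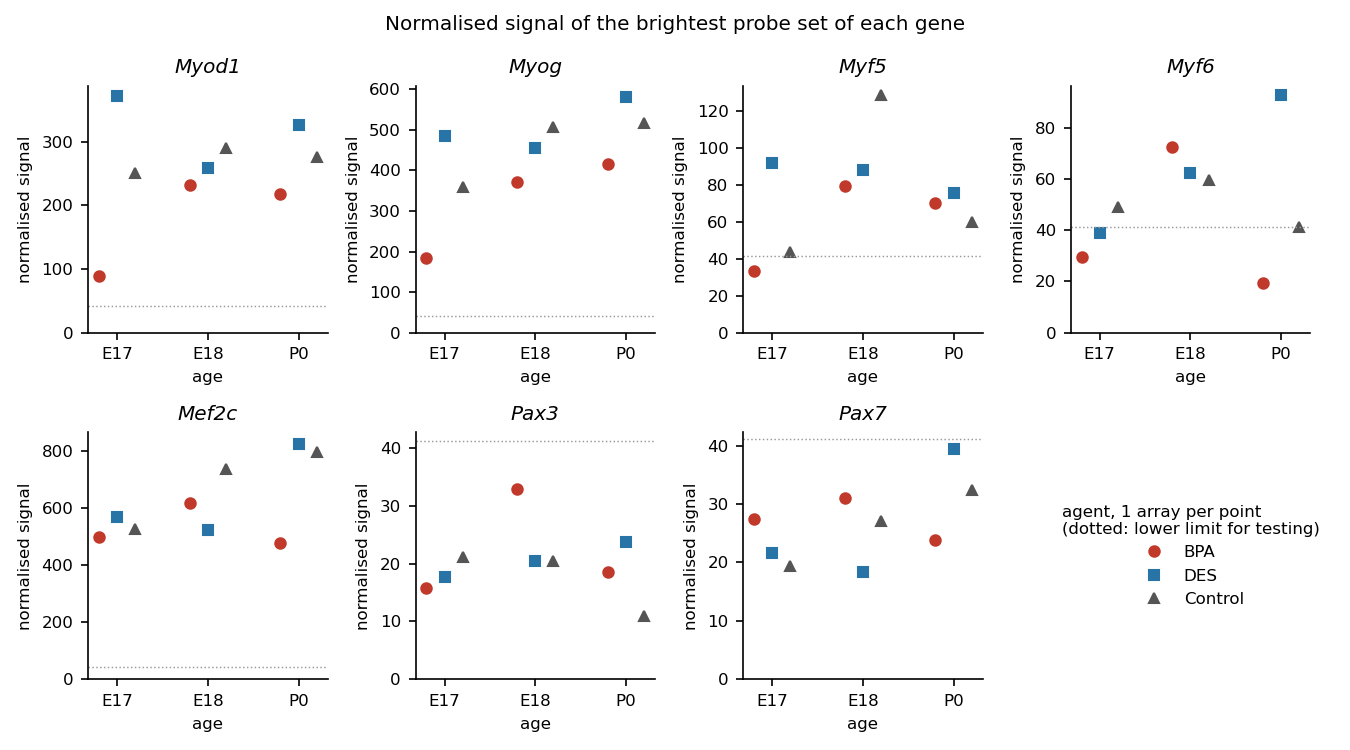
Normalised signal (linear axis from 0) of the brightest probe set of each of the 7 genes against age, with 1 point per array for BPA, DES and control. The dotted line is the lower limit for testing, a signal of 41.2 on average. BPA E17 is the lowest of the 9 arrays for Myod1, Myog and Myf5, BPA P0 is the lowest for Myf6 and Mef2c, and all Pax3 and Pax7 points lie under the line.

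Myod1, which commits cells to the muscle lineage, had a normalised signal, in arbitrary units, of 89.7, 233 and 217 on the BPA arrays at E17, E18 and P0, 371, 260 and 326 on the DES arrays and 250, 290 and 276 on the control arrays (probe set 1418420_at). All 3 BPA arrays lay below all 3 control and all 3 DES arrays, and the BPA E17 array was far below the rest. The means were 180 ± 78.5 for BPA, 319 ± 56.2 for DES and 272 ± 20.4 for control (SD, n = 3 arrays each), and the DES and control ranges overlapped. Between BPA and control the log2 difference was -1.43, -0.31 and -0.34 at E17, E18 and P0. Over the ages it was -0.69 ± 0.27 (SE), with a limma adjusted p of 0.544, and it was -0.24 without the BPA E17 array. A second probe set, 1447675_x_at, had signals of 1.16 to 26.7 on the 9 arrays, under the lower limit, and did not follow the first (r = -0.03 over the arrays).

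Myog, myogenin, the factor of terminal differentiation, read 183, 372 and 417 on the BPA arrays at E17, E18 and P0, 486, 455 and 581 on the DES arrays and 359, 508 and 516 on the control arrays (1419391_at). The BPA array was the lowest of the 3 at each age, and the BPA and control ranges overlapped because BPA at E18 and P0 lay above control at E17. All 3 BPA arrays lay below all 3 DES arrays. Mean signals were 324 ± 124 for BPA, 507 ± 65.8 for DES and 461 ± 88.3 for control. The BPA minus control difference in log2 was -0.95, -0.45 and -0.31 at E17, E18 and P0, and the fit gave -0.57 ± 0.18 (SE) with an adjusted p of 0.416. Without the BPA E17 array the fitted difference was -0.31.

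Myf5, the earliest of the 4 factors in the embryo, read 33.5, 79.1 and 69.9 on the BPA arrays at E17, E18 and P0, 91.6, 88.0 and 75.2 on the DES arrays and 43.3, 129 and 60.03 on the control arrays (1420757_at). The 3 groups overlapped, and the control arrays held both a low and the highest value. Their means were 60.8 ± 24.1 for BPA, 84.9 ± 8.61 for DES and 77.3 ± 45.2 for control. The BPA minus control difference was -0.26 ± 0.29 log2 units (SE, adjusted p = 0.858) and turned to 0.03 without the control E18 array.

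Myf6, the late factor that is retained in fibres, read 29.6, 72.7 and 19.3 on the BPA arrays at E17, E18 and P0, 38.9, 62.4 and 92.7 on the DES arrays and 49.1, 59.5 and 41.1 on the control arrays (1419150_at). The BPA arrays held the lowest value and the second highest of the 9, so the groups overlapped. Several of these signals lay under 41.2, where the pseudocount shrinks log2 differences. Means were 40.5 ± 28.3 for BPA, 64.6 ± 26.9 for DES and 49.9 ± 9.18 for control, and the BPA minus control difference was -0.43 ± 0.38 log2 units (SE, adjusted p = 0.816). It was 0.01 without the BPA P0 array.

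Mef2c had 5 probe sets, all above the lower limit. The brightest, 1421027_a_at, read 498, 617 and 478 on the BPA arrays at E17, E18 and P0, 567, 522 and 824 on the DES arrays and 527, 737 and 795 on the control arrays. The BPA array was below control at every age, and the ranges of the 3 groups overlapped. Means were 531 ± 75.3 for BPA, 638 ± 163 for DES and 686 ± 141 for control. The BPA minus control difference in log2 was -0.08, -0.25 and -0.73 at E17, E18 and P0, and the fit gave -0.35 ± 0.17 (SE, adjusted p = 0.637) and -0.13 without the BPA P0 array. The BPA P0 array, which gave the widest gap, is the array with the highest summed gonad and epidermal markers, and their part in the result was not tested.

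The Mef2c probe sets fell into those that moved together over the arrays and those that did not. Probe sets 1421027_a_at, 1451506_at and 1421028_a_at had correlations of 0.894 to 0.928 with each other, whereas 1424852_at and 1451507_at had correlations of 0.272 to 0.551 with the others and with each other. These values describe 9 arrays that share normalisation and age. Probe set 1421028_a_at read 316, 387 and 356 on the BPA arrays at E17, E18 and P0, 333, 397 and 544 on the DES arrays and 391, 470 and 600 on the control arrays. All 3 BPA arrays were below all 3 control arrays there, by 387 against 391 at the closest. On the other Mef2c probe sets the BPA and control arrays overlapped. Of all tested genes, read by their brightest probe sets, 4.63% had such a separation. In a fit of all probe sets the BPA minus control difference of 1421028_a_at was -0.44 ± 0.13 log2 units (SE, adjusted p = 0.478). Probe set 1424852_at read 398, 517 and 550.2 on the BPA arrays at E17, E18 and P0, 504, 723 and 790.0 on the DES arrays and 559, 574 and 496 on the control arrays. On this probe set BPA P0 lay above control P0, by 0.15 log2 units, in contrast to -0.73 on the brightest, so the gap at birth depended on the probe set read. Its BPA minus DES difference was -0.44 ± 0.14 (SE, adjusted p = 0.642).

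**Figure D2:**
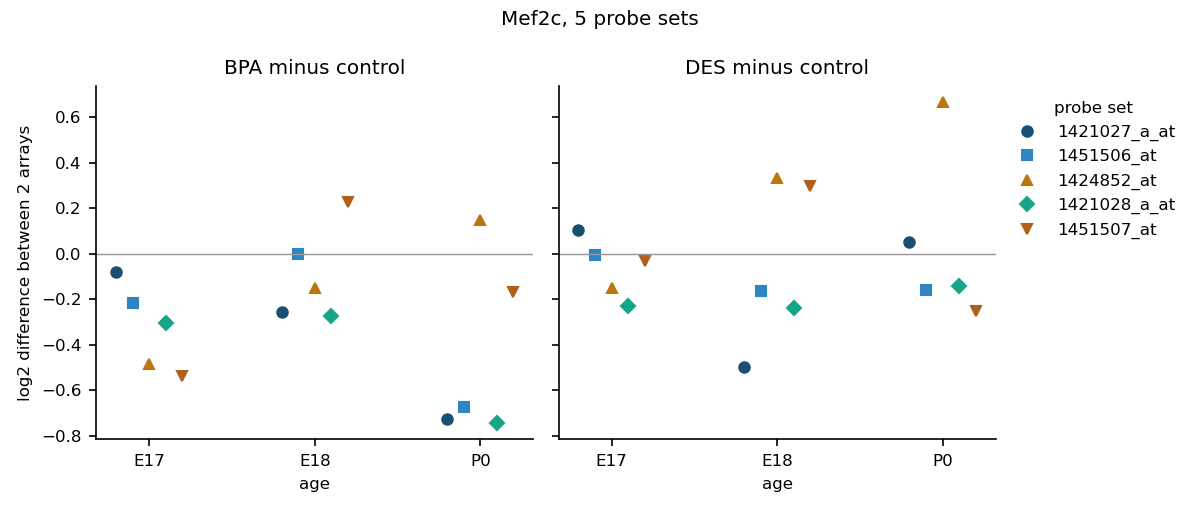
Log2 difference between 2 arrays of the same age (BPA minus control, left, and DES minus control, right) for the 5 Mef2c probe sets against age, with 1 marker per probe set. At P0 the BPA difference is -0.73, -0.67 and -0.74 for 1421027_a_at, 1451506_at and 1421028_a_at, and 0.15 and -0.17 for 1424852_at and 1451507_at.

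Pax3 and Pax7, the progenitor genes, were dim on every probe set. Pax7, the satellite cell marker, read 27.5, 31.0 and 23.8 on the BPA arrays at E17, E18 and P0, 21.6, 18.4 and 39.4 on the DES arrays and 19.3, 27.2 and 32.4 on the control arrays (1452510_at). Its other probe set, 1444596_at, read 1.99 to 26.4. The brightest Pax3 probe set, 1420389_at, read 15.7, 33.0 and 18.6 on the BPA arrays, 17.6, 20.4 and 23.8 on the DES arrays and 21.1, 20.5 and 11.0 on the control arrays in the same order of age. The groups overlapped for both genes. The other Pax3 probe sets, 1430335_a_at and 1441743_at, read 2.02 to 39.9, and correlations between probe sets of the same gene ran from -0.53 to 0.53. In a fit with no lower limit the BPA minus control difference was 0.26 ± 0.32 log2 units for Pax3 and 0.06 ± 0.31 for Pax7 (SE, adjusted p = 0.894 and 0.978, brightest probe sets). A difference in either gene was not detectable at these signals, which does not show that the progenitors were absent.

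Against control, all 5 tested members had lower fitted levels in BPA, where 47.7% of the 13399 tested genes were lower. At an adjusted p under 0.05, 0 members were called in BPA against control, where 0.0149% of all genes (2) were called. At an unadjusted p under 0.05, Myod1 and Myog were lower, against 3.88% of all genes that were lower at that threshold. Read by their brightest probe sets, Myod1, Myog and Mef2c were lower in BPA at all 3 ages, as were 14.7% of genes. Among the members read this way, Myod1 alone had all BPA arrays below all control arrays, as had 4.63% of genes. Mef2c probe set 1421028_a_at, which is not its brightest, had this separation too. On the brightest probe sets, BPA E17 was the lowest of the 9 arrays for Myod1, Myf5 and Myog, as for 12.1% of genes. BPA P0 was the lowest for Myf6 and Mef2c on these probe sets, as for 17.4%. On the other Mef2c probe sets BPA E17 was the lowest, at 474 (1451506_at), 398 (1424852_at), 316 (1421028_a_at) and 201 (1451507_at). In whole-tissue RNA, fewer muscle cells and less RNA per cell cannot be told apart.

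In DES against control, Myod1, Myf5, Myf6 and Myog had fitted log2 differences of 0.21 ± 0.27, 0.26 ± 0.29, 0.28 ± 0.38 and 0.15 ± 0.18 (SE), and Mef2c had -0.11 ± 0.17. The adjusted p-values were 0.916 to 0.937, and 0 members were called where 0% of all genes were; at an unadjusted p under 0.05 it was 0 members against 6.37% of genes. On the brightest probe sets, DES E17 was the highest of the 9 arrays for Myod1, and DES P0 was the highest for Myog, Myf6 and Mef2c. On Mef2c probe sets 1451506_at, 1421028_a_at and 1451507_at the control P0 array was the highest. The BPA and DES comparisons share the control arrays.

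BPA and DES were compared directly, at different doses. Myod1 differed by -0.90 ± 0.27, Myog by -0.71 ± 0.18, Myf6 by -0.71 ± 0.38, Myf5 by -0.52 ± 0.29 and Mef2c by -0.24 ± 0.17 log2 units (SE), with adjusted p-values of 0.505 to 0.753. Single arrays weighed on these sizes. Myod1 and Myog were both at -0.45 without the BPA E17 array, and at -0.55 and -0.48 without the DES E17 array. Myf5 was at -0.30 without BPA E17, -0.14 without DES E17 and -0.81 without DES E18. Myf6 was at -0.27 without BPA P0, -0.19 without DES P0 and -1.11 without BPA E18. Mef2c was at -0.014 without BPA P0, -0.066 without DES P0 and -0.46 without DES E18. At an adjusted p under 0.05, 0 members were called, where 0% of genes were. Myod1 and Myog were lower in BPA at an unadjusted p under 0.05, against 4.69% of genes, and were the members whose BPA arrays all lay below the DES arrays, against 7.61% of genes. On the intensities as deposited, which were not on a common level, these 2 genes passed, with differences of -1.22 (adjusted p = 0.00281) for Myod1 and -1.06 (adjusted p = 0.00501) for Myog, while 0.784% of all genes (105) passed and the median of all genes was -0.34.

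**Figure D3:**
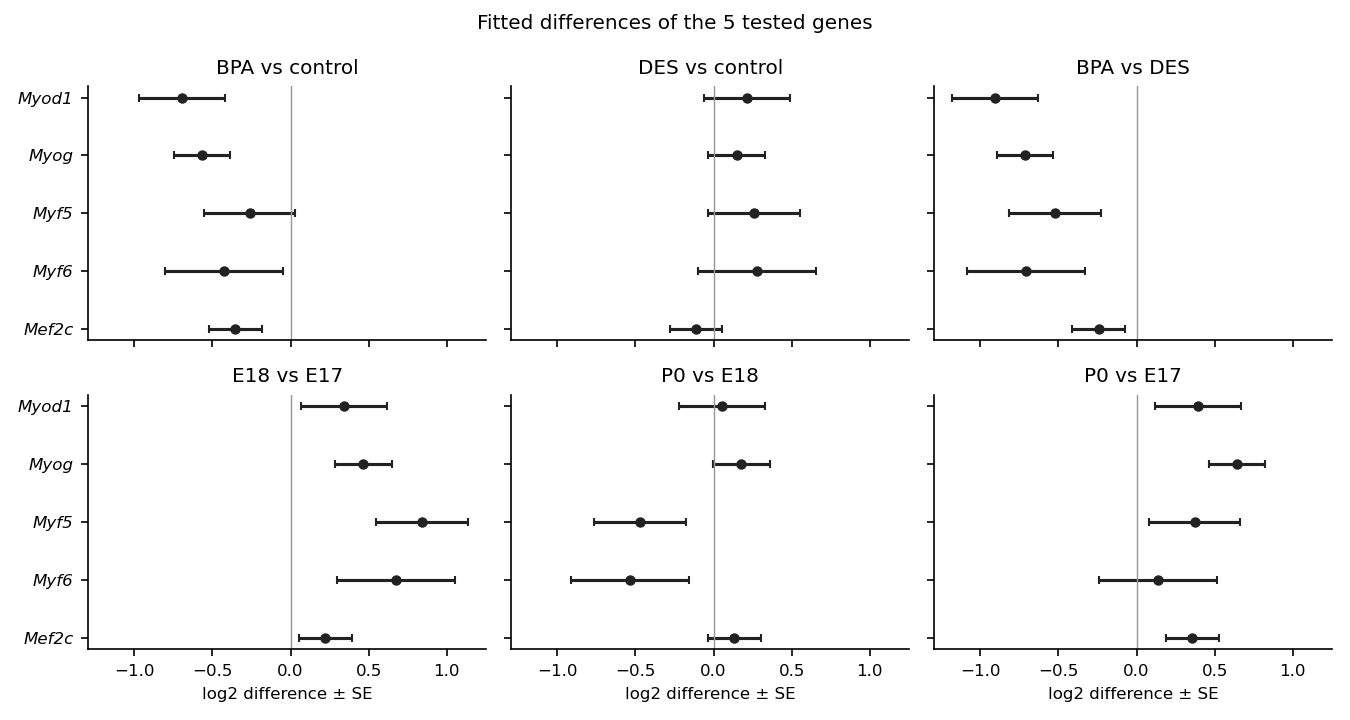
Fitted log2 difference with its SE (horizontal axis, bars are 1 SE) of the 5 tested genes in 6 comparisons from the model of agent and age on 9 arrays. BPA differences lie left of 0 against control and against DES, DES differences from control lie within 1 SE of 0, and E18 and P0 lie right of 0 against E17.

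Across age, Myog was the only tested member whose brightest probe set was higher at P0 than at E17 after all 3 exposures. Its means were 343 ± 152, 445 ± 68.9 and 505 ± 82.8 at E17, E18 and P0 (SD, n = 3 arrays each), and P0 exceeded E17 by 1.16 log2 units in BPA, 0.26 in DES and 0.52 in control. The fitted P0 minus E17 difference was 0.64 ± 0.18 (SE, adjusted p = 0.117), and it was 0.38 without the BPA E17 array and 0.88 without the DES E17 array. At an adjusted p under 0.05, 0 members were called in P0 against E17, where 0.619% of genes (83) were. Myog was higher at an unadjusted p under 0.05, as were 9.42% of genes, and higher at P0 after all 3 exposures, as were 19.6%.

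On their brightest probe sets the other members had wider or more mixed age differences. Myod1 averaged 237 ± 141, 261 ± 29.0 and 273 ± 54.5 at E17, E18 and P0, and the P0 minus E17 difference was 1.23 log2 units in BPA, -0.18 in DES and 0.14 in control, so that its fitted 0.40 ± 0.27 (SE, adjusted p = 0.460) became -0.06 without the BPA E17 array. Mef2c averaged 531 ± 34.9, 625 ± 108 and 699 ± 192 at E17, E18 and P0, and its P0 minus E17 difference was -0.06 in BPA, 0.54 in DES and 0.59 in control. All 5 of its probe sets had a positive fitted P0 minus E17 difference, of 0.29 to 0.49 log2 units, with adjusted p-values of 0.139 to 0.342 over all probe sets. On 1451506_at, 1421028_a_at and 1451507_at, Mef2c was higher at P0 than at E17 after every exposure. For Myod1 and Myog the BPA arrays had the widest gap between E17 and P0 of the 3 exposures, whereas for Mef2c they had the narrowest on the brightest probe set but the widest on 1451507_at.

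Myf5 and Myf6 were highest on average at E18. Myf5 averaged 56.1 ± 31.1, 98.5 ± 26.4 and 68.4 ± 7.70 at E17, E18 and P0, and all P0 arrays lay below all E18 arrays, as for 7.52% of genes. Myf6 averaged 39.2 ± 9.77, 64.8 ± 6.96 and 51.0 ± 37.7 at E17, E18 and P0, and all E18 arrays lay above all E17 arrays, as for 6.16% of genes. The E18 minus E17 difference was 0.84 ± 0.29 for Myf5 and 0.67 ± 0.38 for Myf6 (SE, adjusted p = 1.00 each). In E18 against E17, 0 members were called, where 0% of genes were; Myf5 and Myog were higher at an unadjusted p under 0.05, against 1.89% of genes. In P0 against E18, 0 members were called either, where 0% of genes were, and 0 members passed unadjusted, against 14.3% of genes.

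Whether the gap between an agent and control changed with age was tested as a difference of slopes per age step. For BPA the slope minus the control slope was 0.54 ± 0.25 for Myod1, 0.32 ± 0.17 for Myog and -0.32 ± 0.18 for Mef2c (SE, adjusted p = 0.526, 0.573 and 0.591). For DES it was 0.69 ± 0.39 for Myf6 and between -0.35 and -0.03 for the others. In the BPA slope test 0 members were called, where 0.0597% of genes were, and in the DES slope test 0 members, where 0% of genes were. Unadjusted, 0 members passed in either test, against 9.69% of genes for BPA and 8.95% for DES.

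Myod1 and Myog varied together over the arrays (r = 0.942, n = 9 arrays, which share age, agent and normalisation). Without the BPA E17 array the value was 0.701. Myf5 had r of 0.715 with Myod1 and 0.746 with Myog, which became 0.354 and 0.450 without BPA E17. Myog and Mef2c had r of 0.625, and 0.721 without BPA E17. Of the 10 pairs of members, those with Myf6 were at 0.389 to 0.615. The lowest pair was Myf5 with Mef2c, at 0.386, and Myod1 with Mef2c was at 0.501.

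The tested genes most like each member over the 9 arrays were named by the highest correlation of log2 values among all tested genes, as a description. For Myog they were Synpo2l (0.984), Tnnc1 (0.982), the slow troponin C, and Vgll2 (0.981), a TEAD cofactor of skeletal muscle. For Myod1 they were Nmur2 (0.983), Mterf4 (0.951) and Tnnc1 (0.947). Nmur2 was dim, at 14.4 on the BPA E17 array and 42.3 to 75.5 on the others. Mterf4 was also lowest on BPA E17, at 207. These correlations were not computed without that array. Tnnc1 read 387, 947 and 1092 on the BPA arrays at E17, E18 and P0, 1187, 1146 and 1274 on the DES arrays and 938, 1238 and 1270 on the control arrays, so it too was lowest on the BPA E17 array. Those of Myf5 were Gng7 (0.949), Gpatch4 (0.927) and Ube2j1 (0.895), those of Myf6 were Cdipt (0.963), Col9a1 (0.930) and Pcdhb11 (0.930), and those of Mef2c were Mipol1 (0.923), Faim2 (0.908) and Eid1 (0.904).

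Set against the mean log2 level of 25 contractile genes of skeletal muscle, Myog had r = 0.916 over the arrays, Myod1 0.748, Mef2c 0.657, Myf5 0.648 and Myf6 0.412. Without the BPA E17 array these became 0.739 for Myog, 0.057 for Myod1, 0.670 for Mef2c, 0.255 for Myf5 and 0.212 for Myf6. Leaving out each array in turn gave r of 0.057 to 0.920 for Myod1, so its relation to the contractile genes depended on single arrays. Left without the 2 arrays farthest from the median contractile level, BPA E17 and control E17, r was 0.624 for Myog and 0.624 for Mef2c, and -0.066 for Myod1, -0.203 for Myf5 and 0.237 for Myf6. On the DES E17 array Myog lay 0.52 log2 units above the contractile mean and Myod1 0.14 above it, each the highest offset of the 9 arrays for that gene.

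**Figure D4:**
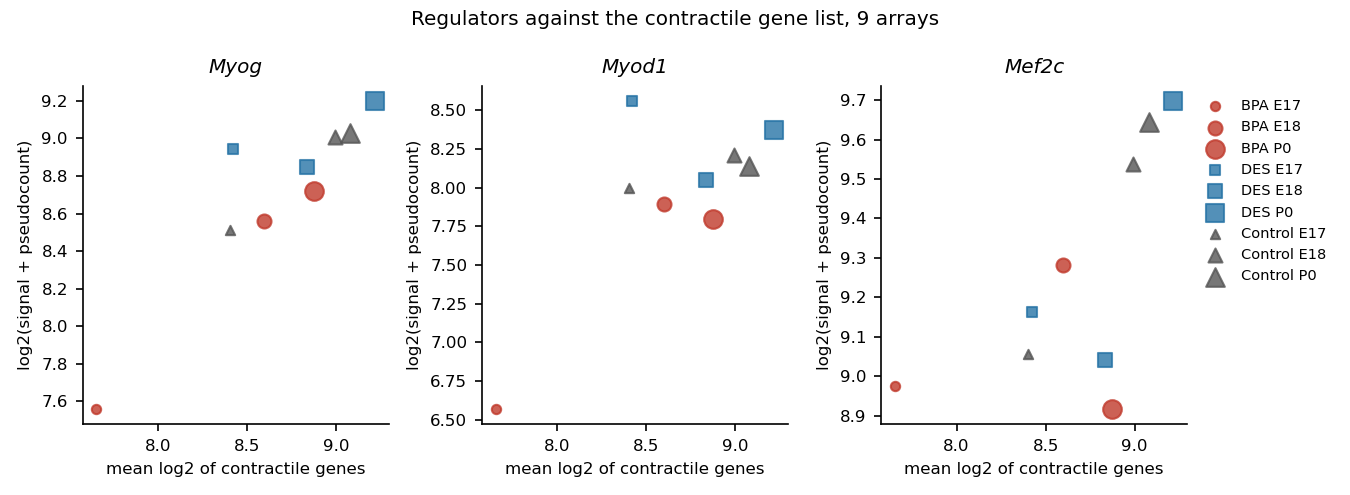
Log2(signal + pseudocount) of Myog, Myod1 and Mef2c (vertical axes, which do not start at 0) against the mean log2 level of 25 contractile genes (horizontal axis), with 1 marker per array, shape and colour by agent and size by age. BPA E17 stands apart at the lower left for Myog and Myod1. The other 8 Myod1 points have r = 0.057, and DES E17 is the highest of them.

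Genes upstream of the myogenic factors were read from a list of 13, of which 9 were tested. In BPA against control 7 were lower and 2 higher with a median of -0.12, against a median of 0.01 for all genes, and 0 passed. Meox1, a somite homeobox gene, read 69.4, 106 and 188 on the BPA arrays at E17, E18 and P0, 152, 199 and 223 on the DES arrays and 132, 184 and 220 on the control arrays. Its BPA minus control difference was -0.62 ± 0.17 log2 units (SE, adjusted p = 0.378), and its P0 minus E17 difference was 0.88 ± 0.17 (adjusted p = 0.0589). Tbx1, the T-box factor of head and pharyngeal muscle, had -0.49 ± 0.22 (adjusted p = 0.589) in BPA and 0.86 ± 0.22 (adjusted p = 0.0921) at P0 against E17.

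Of 12 MEF2 family members and partners, all tested, 6 were lower and 6 higher in BPA than in control, with a median of -0.04, and 0 passed. Vgll2 read 110, 194 and 184 on the BPA arrays at E17, E18 and P0, 234, 235 and 266 on the DES arrays and 186, 236 and 258 on the control arrays, a BPA minus control difference of -0.49 ± 0.15 (SE, adjusted p = 0.408). Tcf4, an E protein that pairs with myogenic factors, had -0.36 ± 0.08 (adjusted p = 0.295). Myocd, the cofactor of smooth and cardiac muscle, had the smallest adjusted p of the list at P0 against E17, with a difference of -0.93 ± 0.21 (adjusted p = 0.0811).

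Among surface genes of satellite cells and myoblasts, 15 of 17 were tested, of which 9 were lower and 6 higher in BPA, with a median of -0.03 and 0 called. Cdh15, M-cadherin, had 75.6, 138 and 135 on the BPA arrays at E17, E18 and P0, 136, 179 and 165 on the DES arrays and 122, 176 and 169 on the control arrays, with a BPA minus control difference of -0.43 ± 0.15 log2 units (SE, adjusted p = 0.458). Des, desmin, ran the other way at 0.53 ± 0.15 (adjusted p = 0.382), and it is shared with smooth muscle, whose 10 markers all had higher fitted levels in BPA (median 0.72, 0 called). Vcam1 had -0.51 ± 0.13 at P0 against E17 (adjusted p = 0.0918).

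The fusion list had 12 tested genes, with a median of 0.02 in BPA against control and 0 called. Mymk, myomaker, which myoblasts need to fuse, read 42.7, 135 and 180 on the BPA arrays at E17, E18 and P0, 197, 211 and 219 on the DES arrays and 130, 238 and 279 on the control arrays. The BPA array was lowest at each age, and the fitted difference from control was -0.97 ± 0.27 log2 units (SE, adjusted p = 0.382). Mymk had 1.06 ± 0.27 (adjusted p = 0.0973) and its partner Mymx, myomixer, 0.79 ± 0.29 (adjusted p = 0.182) at P0 against E17.

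Inhibitors of the myogenic factors, 14 tested, were lower in BPA for 10 and higher for 4, with a median of -0.08 and 0 called. Twist1, a bHLH repressor of MyoD, had -0.37 ± 0.11 (SE, adjusted p = 0.394), Id3, which sequesters E proteins, -0.21 ± 0.07 (adjusted p = 0.458), and Hdac5, a histone deacetylase that represses MEF2, 0.40 ± 0.12 (adjusted p = 0.394).

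Known targets of Myog and MyoD were read beside the contractile genes. In BPA against control 10 of 14 tested targets were lower, with a median of -0.40, and 23 of 25 contractile genes were lower, with a median of -0.52; 0 were called in either. Klhl41, a sarcomere-assembly gene, read 69.7, 149 and 237 on the BPA arrays at E17, E18 and P0, 151, 240 and 266 on the DES arrays and 165, 261 and 386 on the control arrays, a BPA minus control difference of -0.89 ± 0.17 (SE, adjusted p = 0.254). Tnnt2, the cardiac troponin T that fetal skeletal muscle also makes, ran the other way at 0.68 ± 0.18 (adjusted p = 0.363).

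At P0 against E17 the targets and contractile genes were the lists with calls. Among the targets 12 of 14 were higher, with a median of 0.58, and 2 rose, Klhl41 by 1.23 ± 0.17 (SE, adjusted p = 0.0184) and Tnni1, the slow troponin I, by 1.02 ± 0.19 (adjusted p = 0.0448). Among the contractile genes 22 of 25 were higher, with a median of 1.01, and 13 rose. These calls rested on few arrays: without the BPA P0, control E17 or control P0 array 5 contractile genes and 0 targets passed in each case, and 7, 6 and 8 genes in all. Leaving out each array in turn gave 5 to 15 contractile genes and 0 to 3 targets, and Klhl41 and Tnni1 kept positive differences of 1.05 to 1.41 and 0.71 to 1.25. The medians of the upstream, partner, surface and fusion lists lay at 0.09 to 0.14 and that of the inhibitors at -0.11, against 0.00 for all genes, with 0 called in these 5 lists. The largest fitted difference among the members, 0.64 for Myog, lay below the contractile median, and the members' own median was 0.37. The lists were drawn up with results of these arrays known, and these counts describe them.

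**Figure D5:**
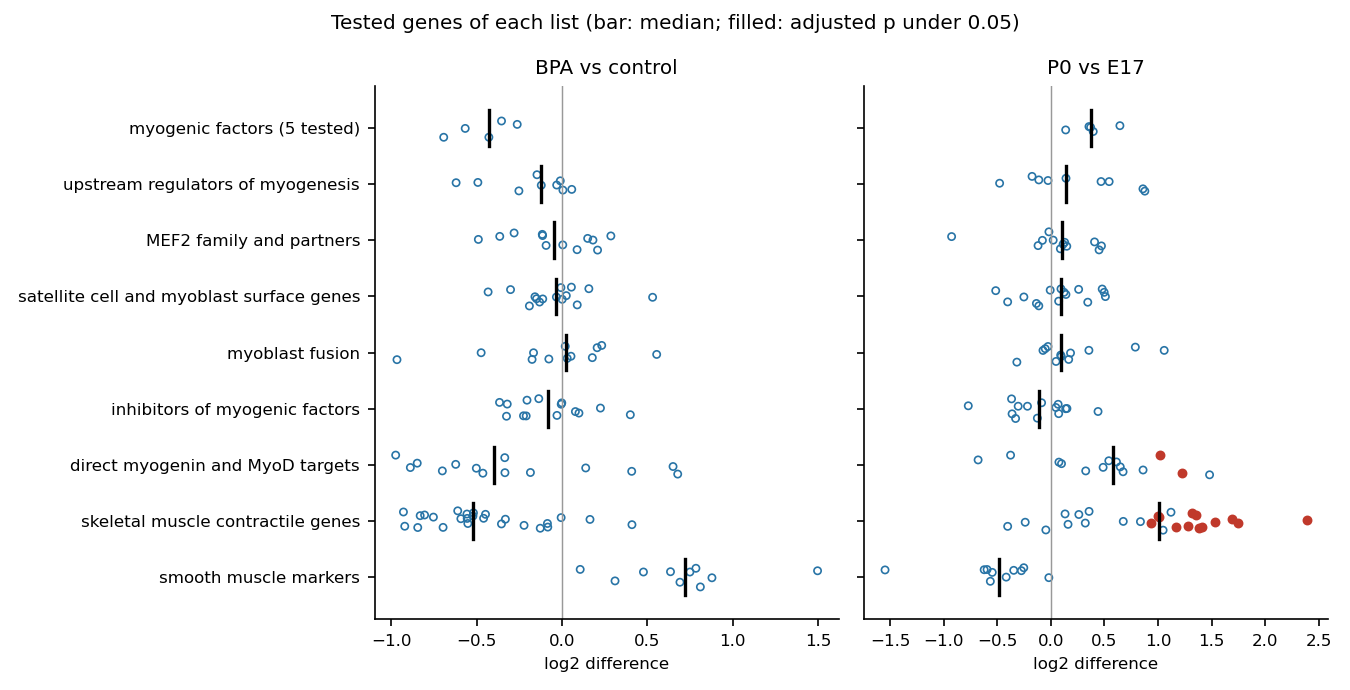
Log2 difference of every tested gene (1 point per gene, vertical spread within a list added only to separate points) in 9 lists for BPA against control (left) and P0 against E17 (right), with the list median as a bar and filled points for an adjusted p under 0.05. Filled points are found only in the P0 against E17 panel, in the target list (2) and the contractile list (13); the smooth muscle markers lie right of 0 in BPA and left of 0 at P0.

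Beside the BPA differences stand those of other tissues on the same arrays. The summed signal of the contractile genes was 16234, 22286 and 24240 on the BPA arrays at E17, E18 and P0, 19964, 24346 and 28854 on the DES arrays and 20365, 24626 and 25365 on the control arrays. The summed smooth muscle signal was 45936, 44119 and 41231 on the BPA arrays, 37481, 37680.5 and 34199 on the DES arrays and 43116, 26390 and 28785 on the control arrays in the same order of age. All 7 epidermal markers had higher fitted levels in BPA than in control (median 2.16, 0 called). They were also all higher in DES than in control (median 0.51, 0 called), as were the 10 smooth muscle markers (median 0.28, 0 called). On the BPA E17 array, where Myod1, Myf5 and Myog were lowest, the epidermal sum was 2916 and the gonad sum 350, both within the range of the DES and control arrays. On that array the smooth muscle sum was the highest of the 9, and so was the summed signal of 7 brown fat markers, at 1758 against 880.1 to 1330.1 on the others. Of these, Ucp1, the defining gene of brown fat, read 2.04 to 8.67 on the 9 arrays, and Fabp4, which other fat also makes, read 1361 on BPA E17. Neuron markers were lower in BPA than in control for 8 of 8 tested (median -0.29, 0 called). In DES against control 7 of these 8 markers were lower and 1 higher (median -0.26, 0 called). Their sums were 7746, 8161 and 7770 on the BPA arrays at E17, E18 and P0, 8296, 7602 and 7642 on the DES arrays and 8685, 9939 and 9356 on the control arrays. The part of these tissues, or of dissection, in the members' differences was not tested.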

How the data were processed

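Urogenital sinus RNA was read on 9 arrays, 1 for each agent and age. As deposited, the table holds linear intensities, 1 per probe set, that the authors made with MAS5 per the submitters' processing notes; its version and scaling target are not given in the sources used here. The design had assumed scaled values, and since the intensities were not on a common level they were quantile-normalised. A pseudocount of 5.46 (the 10th percentile) was added before taking log2, which understates differences of dim genes. Of 45101 probe sets, 64 were controls, 34945 had 1 gene symbol, 932 several and 9160 none in the platform annotation, which can be old. Each of 18193 genes was read by its brightest single-symbol probe set, and the 13399 genes whose mean log2 level reached 5.54 (a signal of 41.2, the 40th percentile of probe sets) were tested. All 9 arrays entered a model of agent and age (limma 3.58.1, R 4.3.3; intensity trend, 4 residual and 6.18 prior degrees of freedom; 2 and 7.32 for slopes), with Benjamini-Hochberg adjustment over all tested genes and a threshold of 0.05. Age is the block that pairs the agents' arrays, as the labels give it. The steps were tested on simulated data with no age effect and with planted BPA differences larger than the members' fitted ones. Differences of the members' size were not simulated. Named genes were all members, up to 4 genes of each list by smallest adjusted p, and the 3 genes most like each member. The members and lists were chosen with earlier results of these data known. Promoter windows are RefSeq's, build GRCm38.p6; Myf5, Myog, Pax7 and Mef2c matched. Arrays from P1 were not analysed here. The closing section gives the alternatives.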

Additional observations from a re-analysis of the deposited data

How the results depend on the processing

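At an adjusted p under 0.05 the member count stayed at 0 in every comparison and alternative run, except BPA against DES on the values as deposited, where 2 members passed (Myod1 and Myog). Over 21 alternatives the Myog difference between BPA and control ran from -0.83 to -0.29 and that of Myod1 from -0.97 to -0.13, and Myog at P0 against E17 ran from 0.34 to 0.88. Counts over all genes varied widely: BPA against control had 2 (0 to 62), BPA against DES 0 (0 to 105), P0 against E17 83 (1 to 1137), P0 against E18 0 (0 to 500), E18 against E17 0 (0 to 8), DES against control 0 (0 to 1), the BPA slope 8 (0 to 206) and the DES slope 0 (0 to 100). The fit with no replicate block, which leaves out age or agent, called 0 members; its Myog adjusted p was 0.814 for BPA against control and 0.259 for P0 against E17.

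Directions turned as follows, and the cause was not tested. On values as deposited, Myod1, Myog and Mef2c at P0 against E18 were -0.13, -0.0089 and -0.046, Myf6 at P0 against E17 was -0.091 and Itgb1 in BPA against DES was -0.14. Without BPA P0 and DES E17, Myod1, Myf5 and Myog in DES against control were -0.12, -0.092 and -0.072, Mef2c in BPA against DES was 0.12 and Myod1 at P0 against E18 was -0.035. Without BPA E17 and BPA P0, a choice made after seeing the data, Myf6 was 0.38 in BPA against control and 0.10 against DES, Mef2c was 0.049 in BPA against DES, Myod1 was -0.15 at E18 and -0.022 at P0 against E17, and Myf6 was 0.027 at P0 against E18.

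Leaving out each array in turn gave these ranges where a sign changed. In BPA against control, Myf5 ran from -0.48 to 0.032 and Myf6 from -0.83 to 0.013. In DES against control, Myod1 ran from -0.15 to 0.49, Myf5 from -0.13 to 0.55, Myf6 from -0.24 to 0.56, Myog from -0.090 to 0.33 and Mef2c from -0.29 to 0.10. Myod1 ran from -0.11 to 0.70 at E18 against E17 and from -0.059 to 0.75 at P0 against E17, where Myf6 ran from -0.38 to 0.58. At P0 against E18, Myod1 ran from -0.23 to 0.34, Myog from -0.0041 to 0.31 and Mef2c from -0.084 to 0.36. For the BPA slope, Myod1 ran from -0.30 to 1.39, Myf5 from -0.62 to 1.15, Myf6 from -1.34 to 1.07, Myog from -0.087 to 0.73 and Mef2c from -0.76 to 0.11. For the DES slope, Myod1 ran from -1.002 to 0.68, Myf5 from -1.23 to 0.54, Myf6 from -0.16 to 1.53, Myog from -0.68 to 0.42 and Mef2c from -0.68 to 0.62. Signal over background limits Pax3 and Pax7, and 1 array per agent and age limits the rest.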
